A study of Mus musculus with 13 samples.

Results

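The genes described here are known or proposed targets of the transcription factor p53, together with a few regulators of p53, 35 genes in all. They were taken by name from a list, which was chosen with earlier results of these data known. Of the 35, 33 were measured on Affymetrix Mouse Genome arrays, among 18194 named genes, and 32 on Mouse Gene 1.0 ST arrays, among 19938 named genes. The other 2 listed genes are not analysed here, and on Gene 1.0 ST arrays the probe set of Cdkn1a is annotated to 2 genes and was not used. Where several probe sets carry a symbol, the brightest by mean was used, and the dimmest 40% of genes were left untested.

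p53 is a DNA-binding protein that is stabilised after DNA damage and other stress, and that raises transcription of genes of growth arrest, cell death, DNA repair and its own feedback control. Mdm2 and Mdm4 hold p53 in check in unstressed cells, and Mdm2 is itself a p53 target. In developing B cells, breaks made while antigen receptor genes are recombined engage the same pathway, and several of the listed genes also respond to other factors, among them Foxo proteins and the amino acid stress response.

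All RNA came from 1 mouse line of pre-B cells, B3, transduced with retroviral vectors that also carry an IRES and GFP. In the first design, cells carried HA-tagged wild-type Ikaros (HA-Ikaros-IRES-GFP, 2 arrays) or the mutant 159A, which is deficient in DNA binding (HA-159A Ikaros-IRES-GFP, 2 arrays), and RNA was taken 48 h after infection and measured on Mouse Genome arrays. In the second, cells carried a fusion of Ikaros with the estrogen receptor domain ERt2, which binds 4-hydroxytamoxifen (HA-Ikaros-ERt2-IRES-GFP), and were exposed to 4-hydroxytamoxifen for 2 h (3 arrays) or 6 h (3 arrays), while vector cells (ERt2-IRES-GFP) were exposed for 6 h (3 arrays), on Gene 1.0 ST arrays. The series therefore asks which genes respond early and late to Ikaros, a zinc-finger regulator of lymphoid development. The arrays include no 2 h vector group and no untreated Ikaros-ERt2 group, so a difference between the lines that preceded exposure cannot be told apart from a response. The 2 h comparison sets 2 h of exposure against 6 h in vector cells, and the change from 2 h to 6 h has no vector counterpart. In both, effects of the length of exposure cannot be told apart from those of Ikaros. The titles call the samples biological replicates but name no separate cultures, and a p-value here can reflect technical spread alone; 2 or 3 arrays per group limit the precision. In bulk RNA, fewer cells of a type and less RNA per cell cannot be told apart.

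The transduced gene Ikzf1 stood at 13.28 ± 0.10 at 2 h and 13.26 ± 0.04 at 6 h in Ikaros-ERt2 cells and at 9.27 ± 0.12 in vector cells (log2 expression, mean ± SD, n = 3 each). One label of vector-ERt2 replicate 1 names inducible Ikaros where its title names the vector, and its Ikzf1 value of 9.16 lay with the other vector arrays. On Mouse Genome arrays both groups carry an Ikaros transgene, and the brighter of the 2 Ikzf1 probe sets stood at 12.04 ± 0.06 in Ikaros and 11.71 ± 0.15 in 159A cells (n = 2 each), and the other at 4.44 ± 0.46 and 12.78 ± 0.07. Of the fixed pre-B cell markers, 8 of 9 measured genes on Gene 1.0 ST and 8 of 8 on Mouse Genome passed the filter on low genes; Rag1 did not pass on Gene 1.0 ST. Of 14 measured markers of T cells, myeloid cells, red cells and fibroblasts, 3 passed on each type, and the myeloid marker Lyz2 stood at 2.65 in Ikaros and 4.39 in 159A cells. The summed linear level of the myeloid markers was 24.6 to 24.9 in Ikaros cells and 34.8 to 45.4 in 159A cells; the T-cell sum was 31.0 to 33.3 and 29.5 to 31.0, and the part of these markers in the results was not tested. Pre-B cell markers themselves moved: of 8 tested, 1 was lower at 2 h, 4 were lower at 6 h (Vpreb1, Vpreb2, Igll1 and Blnk), and at 48 h 3 were higher and 2 lower.

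Many of the listed genes were well expressed in B3 cells, and a group of death receptor and arrest genes was not. Of the 32 members measured on Gene 1.0 ST arrays, 23 were tested, and of the 33 on Mouse Genome arrays, 25 were tested, with 22 tested on both. Ccng1, an unusual cyclin and p53 target, lay at the 97.9th percentile of gene means on Gene 1.0 ST and at the 97.5th on Mouse Genome. Cdkn1a, which encodes the cyclin-dependent kinase inhibitor p21, was at the 98th percentile on Mouse Genome, and Trp53inp1, which encodes a stress-induced nuclear and autophagy protein, at the 99.4th. The death receptor genes Fas and Tnfrsf10b, the apoptosis gene Pmaip1 (Noxa), the membrane protein gene Perp, the autophagy gene Dram1, the kinase gene Plk2 and the stress gene Gadd45g fell below the filter on both types. The 8 untested members on Mouse Genome, those 7 genes and Phlda3, read between 2.19 and 2.36 in every array, where the lowest value of the whole table was 2.19. On Gene 1.0 ST the 9 untested members, the same 7 with Eda2r and Btg2, read between 4.04 and 5.43. The filter lay at 5.10 on Gene 1.0 ST, with Pmaip1 at 5.08 just below and Phlda3, an inhibitor of Akt signalling, at 5.15 just above.

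After 2 h of 4-hydroxytamoxifen, 2 of 23 tested members, Trp53inp1 and Zmat3, were above the level of vector cells exposed for 6 h, and 0 were below it. Across all 11963 genes tested, 0.769% were called higher and 1.1% lower, 1.86% in all (limma, Benjamini-Hochberg adjusted p under 0.05). The median log2 change of the 23 members was 0.15, beside -0.01 over all genes tested, and 15 of 23 changes were above 0, as were 47.2% of all. The arrays of the groups did not overlap for 11 members, 9 higher and 2 lower, where 9.23% of all genes were separated upward and 9.4% downward, 18.6% in all. By unadjusted p under 0.05 in the same test, 11 members passed, as did 1691 of all 11963 genes.

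Trp53inp1 read 9.15, 8.49 and 8.49 in Ikaros-ERt2 cells at 2 h and 7.74, 7.78 and 7.42 in vector cells (log2 expression, replicates 1 to 3). All Ikaros-ERt2 arrays were above all vector arrays, with replicate 1 well above the other two. The difference was 2.09-fold (log2 change 1.06 ± 0.20 SE, adjusted p = 0.0211). Zmat3, a zinc-finger RNA-binding protein that acts in p53-dependent growth control, read 7.54, 7.30 and 7.17 against 6.53, 6.66 and 6.41, again with no overlap. It was 1.75-fold higher (log2 change 0.80 ± 0.15, adjusted p = 0.0195).

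Next in order of p at 2 h came members that did not pass the test. Sesn2, a sestrin that restrains mTORC1 under amino acid and oxidative stress, read 7.49, 7.36 and 7.53 against 6.96, 7.23 and 7.05 (log2 change 0.38, adjusted p = 0.0577). Gadd45a, a growth-arrest and DNA-damage protein, read 8.38, 8.27 and 8.03 against 7.69, 7.74 and 7.38 (log2 change 0.62, adjusted p = 0.0656). Ccng1 read 11.14, 10.55 and 10.50 against 10.17, 9.98 and 9.84 (log2 change 0.73, adjusted p = 0.102). In these 3 genes every Ikaros-ERt2 array lay above every vector array. Apaf1, the scaffold of the apoptosome, went the other way, with 8.34, 8.16 and 8.33 against 8.58, 8.49 and 8.63 (log2 change -0.29, adjusted p = 0.0921).

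**Figure D1:**
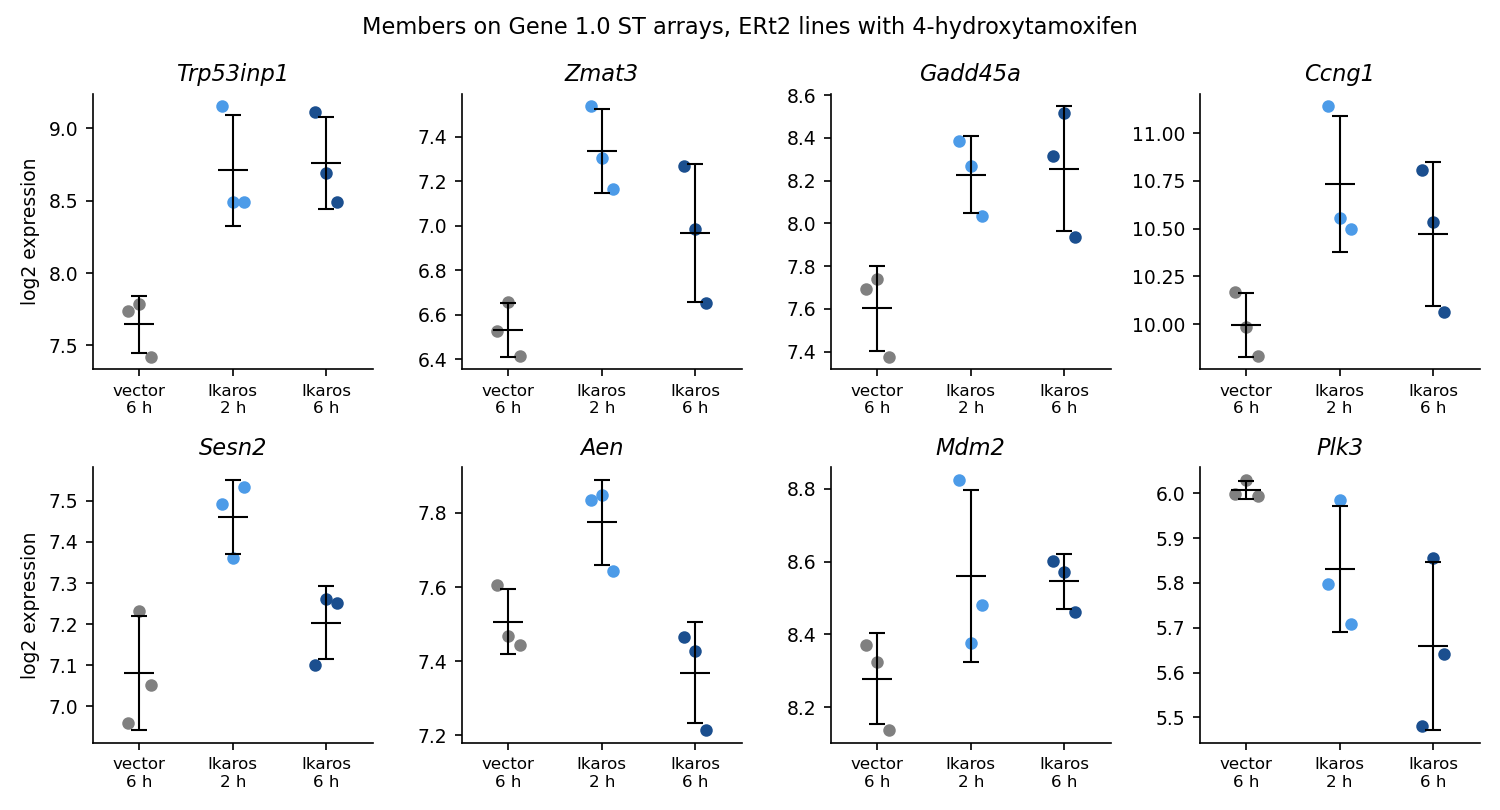
Log2 expression of 8 members on Gene 1.0 ST arrays in vector-ERt2 cells at 6 h and Ikaros-ERt2 cells at 2 h and 6 h of 4-hydroxytamoxifen; points are arrays (replicates 1 to 3 from left to right), bars are mean ± SD (n = 3), and each panel has its own axis range. Trp53inp1, Gadd45a and Mdm2 stood above all vector arrays at both times, Mdm2 narrowly at 2 h and without a call at either time. The Aen and Sesn2 arrays at 6 h lay below those at 2 h.

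The calls at 2 h rested on few arrays. The count of 2 fell to 0 when Ikaros-ERt2 2 h replicate 1 or any of the 3 vector replicates was left out, and to 1 without Ikaros-ERt2 2 h replicate 2, and rose to 3 without Ikaros-ERt2 6 h replicate 3, which enters the shared spread. Over 17 alternatives the log2 change of Trp53inp1 ranged from 0.84 to 1.17 (adjusted p 0.00323 to 0.108) and that of Zmat3 from 0.70 to 0.89 (adjusted p 0.00498 to 0.107). Deviations of same-numbered Ikaros-ERt2 2 h and vector arrays from their group means correlated at 0.12, 0.13 and 0.23. Differently numbered 2 h and 6 h arrays reached 0.34, so this does not show that the arrays are pairs. With the replicate number as a block in the limma fit of all 9 arrays, 4 members were higher at 2 h. These were Trp53inp1 (adjusted p = 0.00323), Zmat3 (0.00498), Gadd45a (0.00638) and Ccng1 (0.00799). With the values quantile-normalized again, 4 members were called higher and 1, Apaf1, lower.

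By role, the p53 regulators were spread at 2 h. Mdm2, the ubiquitin ligase that degrades p53, read 8.83, 8.37 and 8.48 against 8.37, 8.33 and 8.14, a log2 change of 0.28 with a 95% interval of 0.03 to 0.53 (adjusted p = 0.281). Its relative Mdm4 had a log2 change of -0.06 (interval -0.26 to 0.14), and Ppm1d, the Wip1 phosphatase that switches off p53 signalling, 0.02 (-0.13 to 0.17). Of the arrest and cell cycle genes, Btg1, an anti-proliferative protein, stood at -0.06, the stress kinase gene Plk3 at -0.18 and Gadd45b at -0.03. Gtse1, a G2 and mitosis protein that can bind p53, stood at 0.31 (limma, adjusted p = 0.192). Of the 5 tested death genes none was called: the nuclease gene Aen stood at 0.27, Ei24, an endoplasmic reticulum protein, at 0.25, Bbc3 (Puma), a BH3-only activator of apoptosis, at 0.05 and Phlda3 at -0.03, beside Apaf1. Of the 5 repair genes none was called either. Ddb2, a damaged-DNA sensor of nucleotide excision repair, stood at 0.28, the nuclease gene Ercc5 at 0.17, the p53-inducible ribonucleotide reductase subunit gene Rrm2b at 0.15, the damage recognition gene Xpc at 0.11 and the translesion polymerase gene Polk at -0.05. Sesn1, the other sestrin, stood at -0.07 (interval -0.30 to 0.17).

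At 6 h, the time shared with the vector cells, 2 of 23 members were higher and 0 lower, Trp53inp1 and Gadd45a. Of all genes tested, 2.58% were called higher and 3.2% lower, 5.78% in all. The members' median log2 change was 0.11, beside 0.00 over all genes, and 14 of 23 changes were above 0, as were 49.9% of all genes. The groups did not overlap for 6 members, 5 higher and 1 lower, where 11% of all genes were separated upward and 10.3% downward, 21.3% in all. The 2 h and 6 h comparisons share the vector arrays, so a member that is low in those arrays is high in both.

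Trp53inp1 read 9.11, 8.69 and 8.49 at 6 h, all above the vector arrays given before. It was 2.17-fold higher than in vector cells (log2 change 1.12 ± 0.20 SE, adjusted p = 0.00732). It was called in 17 of 17 alternatives, with adjusted p from 0.0011 to 0.0431. Gadd45a read 8.32, 8.51 and 7.94, also above every vector array, and was 1.57-fold higher (log2 change 0.65 ± 0.15, adjusted p = 0.0285). Its call held in 10 of 17 alternatives (adjusted p 0.00263 to 0.118) and was lost without Ikaros-ERt2 6 h replicate 1 (adjusted p = 0.108) or replicate 2 (0.0845) and without vector replicate 1 (0.0761), 2 (0.0578) or 3 (0.118).

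The other members with small p at 6 h were Ddb2, Plk3, Zmat3 and Gtse1. Ddb2 read 6.68, 6.74 and 6.49 against 6.49, 6.10 and 6.10 (log2 change 0.41, adjusted p = 0.0574), and vector replicate 1 overlapped the Ikaros-ERt2 range. It was called without that vector array (adjusted p = 0.0154) or without Ikaros-ERt2 6 h replicate 3 (0.0447). Plk3 read 5.48, 5.86 and 5.64 against 6.00, 6.03 and 5.99, all lower (log2 change -0.35, adjusted p = 0.0758), and was called without Ikaros-ERt2 6 h replicate 2 (0.0247). Zmat3 read 7.27, 6.98 and 6.65 at 6 h, and its lowest array now lay beside the highest vector array (log2 change 0.44, adjusted p = 0.123); it was called without Ikaros-ERt2 6 h replicate 3 (0.0274). Gtse1 read 7.90, 7.59 and 7.59 against 7.39, 7.26 and 7.49 (log2 change 0.31, adjusted p = 0.124), with no overlap.

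Mdm2, Ccng1 and the death genes were not called at 6 h. Mdm2 read 8.60, 8.57 and 8.46, above the vector arrays, with a log2 change of 0.27 (interval 0.02 to 0.52, adjusted p = 0.234). Ccng1 read 10.81, 10.54 and 10.06, and its lowest array fell inside the vector range (log2 change 0.47, adjusted p = 0.232). The death genes Bbc3, Apaf1, Aen, Phlda3 and Ei24 had log2 changes from -0.14 to 0.15, and none was called. The 95% interval of Bbc3 ran from -0.25 to 0.14, which does not show that its level was equal but leaves out a change of the size seen for Trp53inp1. Sesn1 (-0.05), Sesn2 (0.12), Rrm2b (0.22), Xpc (-0.02), Polk (-0.05), Ercc5 (0.09), Ppm1d (-0.01), Mdm4 (0.11), Gadd45b (0.11) and Btg1 (0.19), all as log2 changes, were not called.

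**Figure D2:**
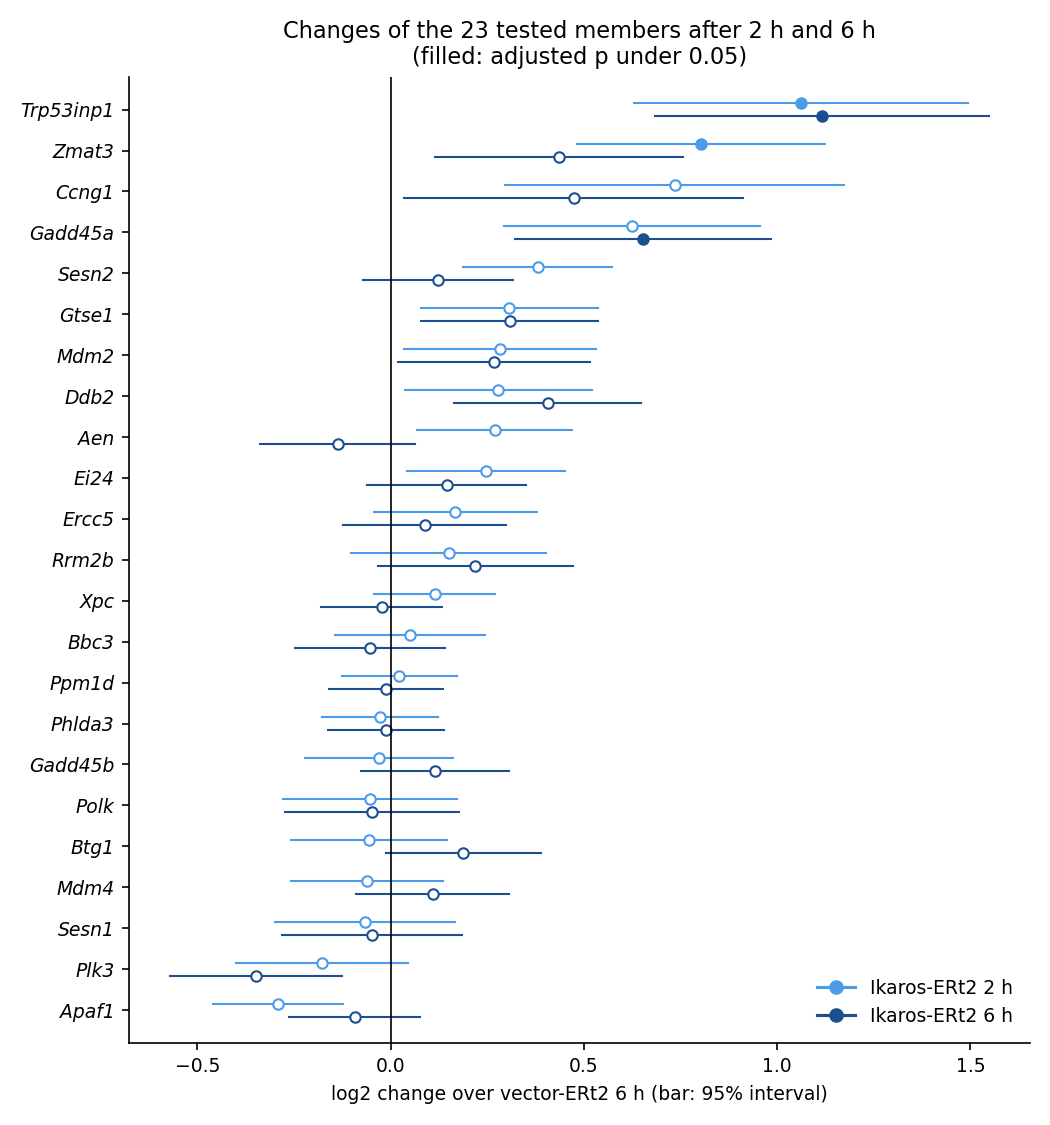
Log2 change of the 23 tested members over vector-ERt2 cells for Ikaros-ERt2 cells at 2 h (light) and 6 h (dark), with 95% intervals from the limma fit; filled points had an adjusted p under 0.05. Trp53inp1 had the highest change at both times, Zmat3 was called at 2 h and Gadd45a at 6 h, and the vector arrays are the same for both.

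From 2 h to 6 h of exposure of Ikaros-ERt2 cells, limma called 0 of 23 members. It called 0.903% of all genes, 0.376% higher and 0.527% lower. By unadjusted p under 0.05 in the same test, 5 members passed, as did 1629 of all 11963 genes. Of all called genes 41.7% were higher, and 27.8% with each array centred on its median. The members' median log2 change was 0.00, beside 0.01 over all genes, and 12 of 23 changes were above 0, as were 52.9% of all. The times did not overlap for 1 member upward (Apaf1) and 2 downward (Aen and Sesn2), where 7.9% and 6.91% of all genes did so, 14.8% in all. Aen, the p53-induced apoptosis-enhancing nuclease, read 7.83, 7.85 and 7.64 at 2 h and 7.47, 7.43 and 7.21 at 6 h. All its 6 h arrays were lower than its 2 h arrays (log2 change -0.41 ± 0.09 SE), and the adjusted p was 0.0714, with a range of 0.0416 to 0.262 over 17 alternatives, 4 of which called it.

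Sesn2 read 7.10, 7.26 and 7.25 at 6 h, below its 2 h values (log2 change -0.26, adjusted p = 0.218). Zmat3 stood lower at 6 h by 0.37 on the log2 scale, with overlapping arrays and an adjusted p of 0.291. Apaf1 read 8.46, 8.55 and 8.41 at 6 h, above its 2 h arrays (log2 change 0.20, adjusted p = 0.279), and Btg1 had a log2 change of 0.24 (adjusted p = 0.263), and Xpc -0.14 (adjusted p = 0.439). Trp53inp1 and Gadd45a had log2 changes of 0.05 (interval -0.38 to 0.49) and 0.03 (interval -0.30 to 0.36) between the times. Zmat3 was called at 2 h and not at 6 h, and Gadd45a at 6 h and, without the block, not at 2 h, and neither difference between the times passed the test.

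At 48 h after infection, 9 of 25 tested members differed between wild-type Ikaros and 159A cells, 6 higher and 3 lower, against 6.38% of all 10916 genes called higher and 8.47% lower, 14.8% in all. The arrest genes Gadd45a and Btg1, the sestrin gene Sesn1, the ribonucleotide reductase gene Rrm2b, Trp53inp1 and the phosphatase gene Ppm1d were higher. The receptor gene Eda2r, Aen and the arrest gene Zmat3 were lower. Of the 8 tested genes of growth arrest and the cell cycle, the mitosis gene Gtse1 among them, 3 changes were above 0 and 5 below. Their median log2 change was -0.99. The median log2 change of the members was -0.60, beside 0 over all genes, and 10 of 25 changes were above 0, as were 50% of all. The arrays of the groups did not overlap for 22 of 25 members, 9 higher and 13 lower, where 27.7% of all genes were separated upward and 30% downward, 57.7% in all. Centring each array on its median shifted all changes at this time up by 0.11, and of all called genes 50.7% were then higher, against 42.9% without centring; among the members 6 were then called higher and 4 lower.

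Gadd45a read 9.86 and 9.39 in Ikaros cells and 5.78 and 5.55 in 159A cells (log2 expression, replicates 1 and 2). This was the largest rise of the list, 15.6-fold (log2 change 3.96 ± 0.23 SE, adjusted p = 0.0227). Rrm2b, which supplies deoxynucleotides for repair outside S phase, read 11.52 and 11.92 against 9.28 and 9.76, 4.61-fold higher (log2 change 2.20 ± 0.27, adjusted p = 0.0412). Its 3 other probe sets had changes of 2.18 to 2.69 in the same direction.

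Sesn1 read 14.38 and 14.31 against 12.26 and 12.02 and was 4.59-fold higher (log2 change 2.20 ± 0.12, adjusted p = 0.0216), and its 3 other probe sets had changes of 2.26 to 3.31. Btg1 read 13.11 and 13.04 against 11.11 and 11.03 and was 4.00-fold higher (log2 change 2.00 ± 0.07, adjusted p = 0.018), with changes of 2.18 and 1.44 in its other probe sets. In both genes every Ikaros array lay above every 159A array.

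Trp53inp1, called at both early times, read 15.25 and 15.64 against 13.53 and 13.69 and was 3.56-fold higher (log2 change 1.83 ± 0.19, adjusted p = 0.034); its second probe set had a change of 2.68. Ppm1d, with no early change called, read 10.41 and 10.18 against 9.08 and 9.05 and was 2.33-fold higher (log2 change 1.22 ± 0.11, adjusted p = 0.0312), and 1.10 on its second probe set. Both genes were higher in each Ikaros array than in each 159A array.

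Eda2r, an ectodysplasin receptor of the tumour necrosis factor family, read 2.62 in both Ikaros arrays and 6.60 and 5.97 in 159A cells. Since the Ikaros arrays lay within 1 log2 unit of the lowest value of the table, the fall is given as a bound, at least 8.51-fold (adjusted p = 0.0262). Aen read 9.35 and 9.39 against 10.82 and 11.24 and fell by 1.66 on the log2 scale (adjusted p = 0.0375), and its 3 other probe sets were lower too, 1 of them near the floor in both groups. Zmat3 read 11.94 and 11.64 against 12.85 and 12.78 and fell by 1.02 (adjusted p = 0.0479). This call, the closest to the threshold, held in 4 of 11 alternatives (adjusted p 0.0236 to 0.27) and was lost with no filter (0.137), with a trended robust eBayes (0.0503), with the replicate block (0.0658) and without any 1 of the 4 arrays. The 2 h and 48 h changes of Zmat3 came from different array types and controls, and the difference between them was not tested.

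**Figure D3:**
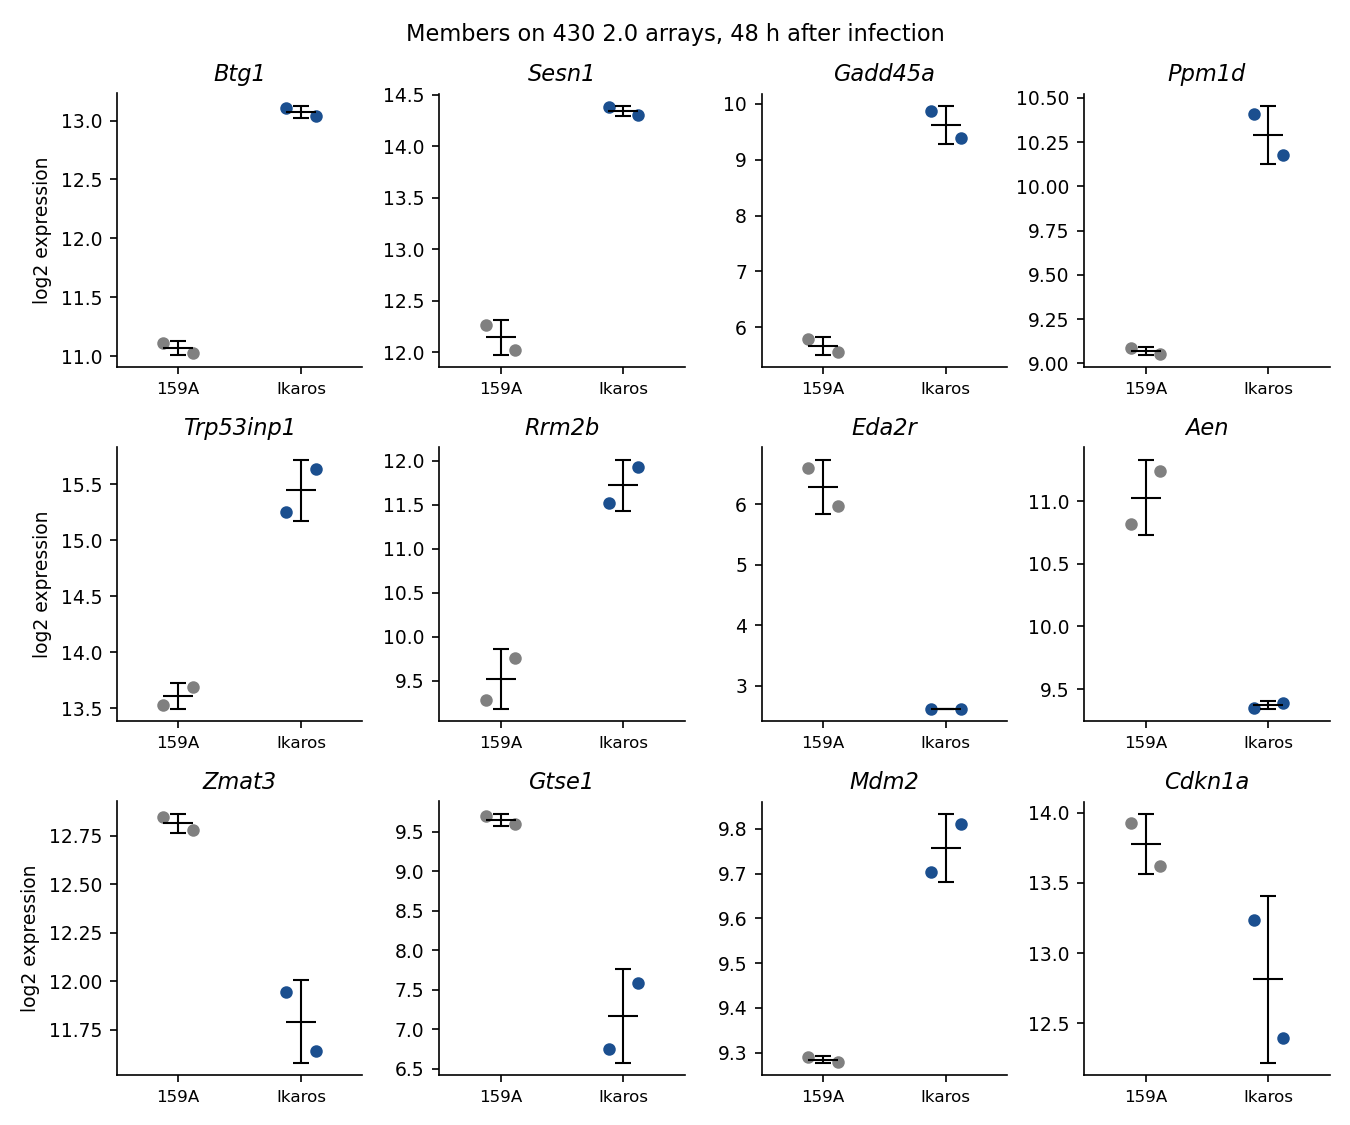
Log2 expression of 12 members on Mouse Genome arrays at 48 h after infection in 159A and Ikaros cells; points are arrays (replicates 1 and 2 from left to right), bars are mean ± SD (n = 2), and each panel has its own axis range. The first 9 panels, Btg1 to Zmat3, hold the called members, and Eda2r stood at 2.62 in both Ikaros arrays.

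Members close to the threshold at 48 h included Gtse1, which read 6.75 and 7.59 against 9.71 and 9.60 (log2 change -2.48, adjusted p = 0.0511). Mdm2 read 9.70 and 9.81 against 9.29 and 9.28 (log2 change 0.47, adjusted p = 0.0532), and Ddb2 8.70 and 9.01 against 9.85 and 10.10 (log2 change -1.12, adjusted p = 0.0581). In each of the 3 genes the groups did not overlap, and none of them passed the test. For Mdm2 the sign was that of both early comparisons, while Gtse1 and Ddb2 had positive changes early.

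Cdkn1a, the classic arrest target of p53, was not among the called genes. It read 13.23 and 12.39 in Ikaros cells and 13.93 and 13.62 in 159A cells, so that both Ikaros arrays were lower (log2 change -0.96, interval -2.22 to 0.30, adjusted p = 0.223). Its second probe set stood at 9.13 ± 0.22 and 10.61 ± 0.07 (mean ± SD, n = 2). Its mean was lower in Ikaros cells on both probe sets.

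All 5 tested death genes, of 11 measured, had a negative change at 48 h, as did 15 of all 25 tested members. Of all genes tested, 50% had a change above 0, 8.47% were called lower and 6.38% higher. Of these 5 death genes, 2 were called, Eda2r and Aen. Apaf1 (log2 change -0.19), Ei24 (-0.72) and Bbc3 (-0.27) were not called. Of the 5 repair genes, Rrm2b was called, while Polk (-1.27), Ercc5 (-0.62), Ddb2 and Xpc (1.24, interval -0.70 to 3.18) were not. Of the remaining members, Sesn2 (-0.62), Ccng1 (-0.60), Plk3 (-1.10), Btg2 (-1.08), Gadd45b (0.34) and Mdm4 (0.48) were not called, and Bbc3, Btg2 and Mdm4 had overlapping groups. The Ikaros arrays of Btg2 read 4.41 and 6.13, those of Mdm4 8.88 and 10.35, and those of Plk3 both 3.40. The other probe sets of Ccng1 (-1.075 and -0.882) and of Sesn2 (-0.985) had larger falls than those used.

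The count at 48 h depended on every array. With any 1 of the 4 arrays left out, limma called 0 members (9 to 16 at an unadjusted p under 0.05), since 1 group is then a single array whose spread is taken from the other group. With no filter on low genes, limma called 2 members, Btg1 (adjusted p = 0.0433) and Apaf1, lower. The change of Apaf1 was small, -0.19 on the log2 scale, and its arrays within a group were nearly equal (SD 0.0001 in Ikaros and 0.008 in 159A cells). It was not called in the main fit (adjusted p = 0.136).

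**Figure D4:**
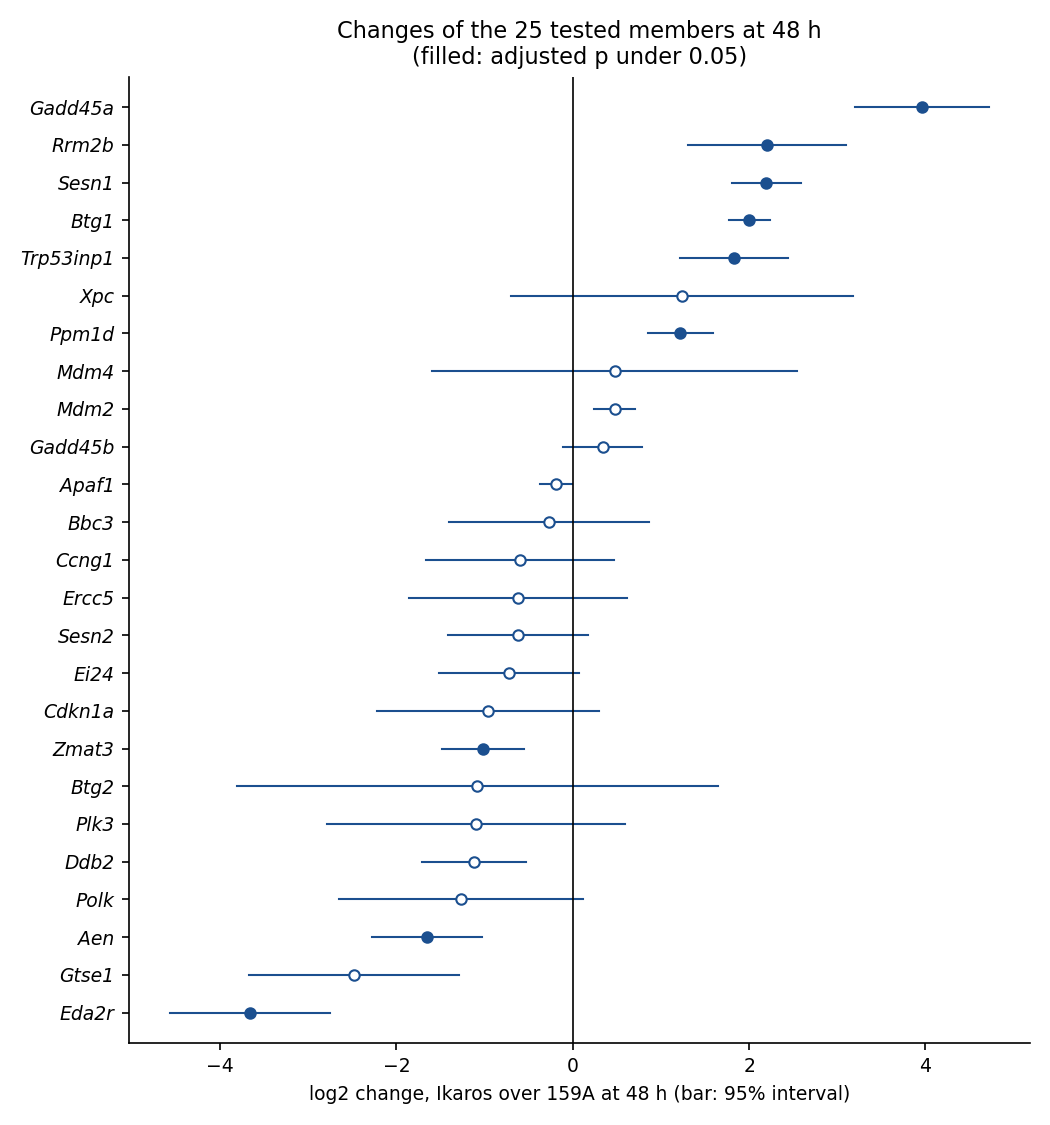
Log2 change of the 25 tested members between Ikaros and 159A cells at 48 h, with 95% intervals from the limma fit; filled points had an adjusted p under 0.05. Gadd45a had the highest change (3.96), and Eda2r the lowest fitted change (-3.66); its Ikaros arrays were near the floor, and the bound is a fall of at least 8.51-fold.

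The early and late comparisons share no arrays. Of the 22 members tested on both array types, 7 had changes above 0 at 6 h and at 48 h, 5 had changes below 0 at both, 7 were above 0 at 6 h and below 0 at 48 h, and 3 were the reverse. Trp53inp1 and Gadd45a were the members called higher at both 6 h and 48 h. The members called at 48 h without an early call were Btg1, Sesn1, Ppm1d, Rrm2b and Aen, and Eda2r was not tested early.

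**Figure D5:**
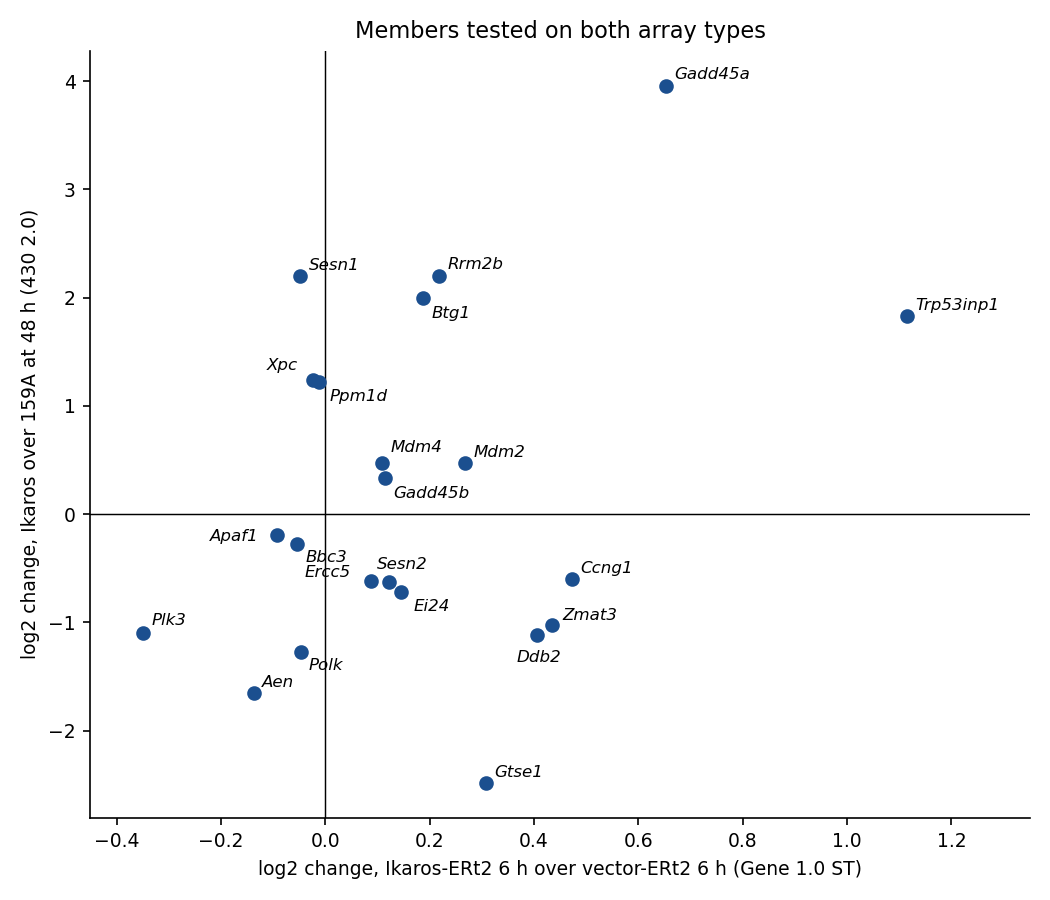
Log2 change of the 22 members tested on both array types, at 6 h over vector-ERt2 cells (horizontal) and at 48 h over 159A cells (vertical); each point is 1 gene, and the axes differ in scale. Gadd45a (0.65 and 3.96) and Trp53inp1 (1.12 and 1.83) lie far into the upper right, while Zmat3, Ddb2, Ccng1 and Gtse1 lie right of 0 and below it.

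Other genes of the pathway came from 2 further lists, and their counts are read beside the shares called among all genes, 1.86% at 2 h and 5.78% at 6 h. Of 22 tested kinases, cofactors and relatives of p53, 0 were called by limma at 2 h (3 at an unadjusted p under 0.05) and 0 at 6 h (4 at an unadjusted p under 0.05). Of all 11963 genes, 1691 at 2 h and 2130 at 6 h had an unadjusted p under 0.05. Of 28 tested further p53 targets, 1 was higher at 2 h, Tnfaip8, a regulator of cell death (log2 change 0.79 ± 0.12, adjusted p = 0.00773). At 6 h, 2 were higher, Trp53i11 (0.59 ± 0.07, adjusted p = 0.00132) and Tnfaip8 (0.72), and 1 was lower, the iron reductase gene Steap3 (-0.37).

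At 48 h, 3 of 22 upstream genes were higher and 1 lower, where 14.8% of all genes were called. Trp53bp2, a p53-binding cofactor of the ASPP family, had a log2 change of 2.11, the acetyltransferase gene Ep300 of 0.84 and the p53 relative Trp63 of 0.74, while the deubiquitinase gene Usp7 fell by 0.56. Of 27 further targets, 5 were lower and 0 higher by limma, where 8.47% of all genes were called lower and 6.38% higher. Psrc1, a spindle protein, fell by 4.55 on the log2 scale, Siva1, a pro-apoptotic protein, by 2.83, Pidd1, a death-domain protein, by 2.12 and Rps27l by 1.15. The adenylate kinase gene Ak1, the remaining call, was at least 1.83-fold lower; its Ikaros arrays (2.39 and 2.19) were near the floor, and their mean of 2.29 lay below the filter, at 2.38, so it was tested only because of its level in 159A cells (4.07 and 4.05) and had to differ. The median of the further targets was -0.39, beside -0.60 for the members and 0 for all genes.

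Promoter sequences were taken to show where members carry the letters that p53 recognises. RefSeq windows of 300 bases (250 before and 50 after the start of transcription, build GRCm38.p6) were found for 25 of the 33 measured members, as 33 windows, since some genes have several starts. Ddb2, Perp, Pmaip1, Rrm2b, Tnfrsf10b, Trp53inp1, Xpc and Zmat3 were not matched. The p53 decamer, the 10-base motif that makes up a p53 site, was searched on both strands and found in 11 of 33 member windows, of 10 genes, and in 8.36% of all 32851 windows. A full site, 2 decamers up to 13 bases apart, was found in 1 member window, that of Cdkn1a, and in 0.0731% of all windows. GGGAA, a core of Ikaros binding sequences, was found on either strand in 26 of 33 member windows and in 62.7% of all windows; it can share end bases with a p53 decamer. A match is a description of the letters and not a measured binding site.

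The sites of the members called at 48 h, and of Mdm2, Ccng1 and Cdkn1a for comparison, are shown 5′ to 3′ on the strand of the gene. Each has up to 20 flanking bases, with the matched site in capitals (build GRCm38.p6). For Cdkn1a the capitals span 32 bases, the matched decamers and the bases between them, which are not part of the motif. Only exact decamers were matched, so the lower-case flank can still hold a near match, and the capitals do not set the bounds of a p53 element.
Gadd45a, chr6:67037418-67037467, minus strand, 40 bases upstream: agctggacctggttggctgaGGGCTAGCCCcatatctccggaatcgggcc
Sesn1, chr10:41887246-41887295, plus strand, 173 bases upstream: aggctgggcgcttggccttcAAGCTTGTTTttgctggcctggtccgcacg
Ppm1d, chr11:85311102-85311151, plus strand, 132 bases upstream: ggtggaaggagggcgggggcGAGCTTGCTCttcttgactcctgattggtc
Aen, chr7:78895937-78895946, plus strand, 121 bases upstream of one start: GGGCTTGTCC
Mdm2, chr10:117710915-117710964, minus strand, 186 bases upstream: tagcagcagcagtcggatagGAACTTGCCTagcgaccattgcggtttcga
Ccng1, chr11:40755442-40755491, minus strand, 185 bases upstream: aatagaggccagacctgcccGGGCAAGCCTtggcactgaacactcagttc
Cdkn1a, chr17:29090886-29090957, plus strand, 73 bases upstream, full site: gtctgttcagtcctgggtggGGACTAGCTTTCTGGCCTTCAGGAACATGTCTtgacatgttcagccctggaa
In this set, Gadd45a, Sesn1 and Ppm1d were higher at 48 h, Aen was lower, and Mdm2, Ccng1 and Cdkn1a were not called. The called members Btg1 and Eda2r had a window without a decamer. For Cdkn1a and Sesn1 the site shown lies at one start, and the window of another start of each gene held no decamer.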

How the data were processed

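Per probe set and array, the authors deposited 1 normalized log2 value. GCRMA, RMA, affy and limma stand in the submitters' processing notes without roles; which method made which table is not given in the sources used here. The 2 array types were tested apart. Probe sets with 1 gene symbol in the platform annotation were used, 34958 of 45101 on Mouse Genome and 21789 of 35556 on Gene 1.0 ST. On Mouse Genome, 36.7% of values lay within 0.01 of the lowest, so changes near this floor have no exact size. Genes past the filter, 10916 and 11963, were tested two-sided with lmFit and eBayes of limma 3.58.1 (R 4.3.3), with 1 fit for the 9 Gene 1.0 ST arrays. Arrays correlated at 0.988 to 0.998 within groups.

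The list members, further lists and tests were chosen with earlier results of these data known. Text names every measured member; values per array are given for members called in a comparison, Cdkn1a, Mdm2, and up to 6 members by smallest p per comparison; of other pathway genes, up to 5 called per list. Near the floor means within 1 log2 unit of the lowest value of the table.

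In a simulation, known log2 changes were given to 100 genes per size. For Ikaros-ERt2 6 h over vector, 74% were recovered at a change of 0.5 and 99% at 1, with 12 false calls. For Ikaros over 159A at 48 h, 22% were recovered at a change of 2 and 54% at 4, with 3 false calls. A member not called at 48 h can therefore still have changed by such an amount. Same-numbered replicates were checked for shared deviations, by the rule that every one of 3 pairs correlates over 0.1. Ikaros-ERt2 2 h and vector arrays met it (0.12 to 0.23). Ikaros-ERt2 6 h arrays did not, with vector (-0.10 to 0.11) or 2 h arrays (-0.26 to 0.24). Differently numbered 2 h and 6 h arrays correlated at up to 0.34, so meeting the rule does not show pairing. On Mouse Genome arrays the correlation was 0.57, the same for both pairs since groups of 2 deviate in mirror image, and 2 pairs do not settle it. Alternatives were no filter, a 60% filter, quantile normalization, centring, the replicate number as a block, a trended robust eBayes, the mean of all probe sets, only the 2 groups compared and each array left out.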

Additional observations from a re-analysis of the deposited data

How the results depend on the processing

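With no filter on low genes, the count of members called was 1 at 2 h, 1 at 6 h and 2 at 48 h. Leaving out the lowest 60% gave 4 at 2 h, 3 at 6 h, 1 between 2 h and 6 h and 10 at 48 h. In the same order, quantile normalization gave 5, 3, 1 and 10, and centring 4, 3, 1 and 10. At 48 h, a trended robust eBayes gave 8 and the mean of all probe sets 11, beside 9 in the main fit. With the replicate number as a block the counts were 4 at 2 h, 5 at 6 h, 1 between the times and, with 1 residual degree of freedom, 0 at 48 h (18 at an unadjusted p under 0.05). The rule for shared deviations was met for 2 h against vector only, which does not show pairing, and at 48 h 2 pairs do not settle it. With only the 2 groups compared in the fit, 1 member was called at 6 h. With 1 array left out, the counts were 0 to 3 at 2 h, 1 to 4 at 6 h, 0 between the times and 0 at 48 h. Of the single-gene changes recomputed, 0 reversed; 71 lost their call, 23 gained one and 309 kept their side of the threshold. Over all genes, the 2 h count of 223 became 141 with no filter and 82 to 269 with 1 array left out; the 6 h count of 692 became 335 to 714 with 1 array left out and 480 to 879 under the other alternatives; the 108 genes between the times became 59 with no filter, 179 with quantile normalization, 0 with only the 2 groups (1301 at an unadjusted p under 0.05) and 9 to 149 with 1 array left out; and the 1621 at 48 h became 185 with no filter, 2437 with centring, and 0 with the block (4493 at an unadjusted p under 0.05) or with any array left out (2165 to 3668). The causes were not tested. The number of arrays and, on Mouse Genome arrays, the floor limit what can be read.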
